A study of Drosophila melanogaster with 2 samples.

Results

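The Dpr and DIP genes of Drosophila melanogaster encode neuronal cell surface proteins, and the peaks of the transcription factor pan at these genes are described here. The members were the protein-coding genes of the Ensembl annotation named dpr followed by a number (21 genes, dpr1 to dpr21) or named with the prefix DIP- (11 genes), which gave 32 of the 13968 protein-coding genes on the main chromosome arms. The rule uses gene names alone. Dpr proteins, named after the defective proboscis extension response of dpr1 mutants, and DIPs, the Dpr-interacting proteins, are immunoglobulin-domain proteins. Each Dpr binds a small set of DIPs on the surface of other neurons, and matched pairs have been implicated in the choice of synaptic partners and in neuronal survival. pan is the fly TCF, the DNA-binding protein that carries Wingless (Wnt) signals to the genome, where it works with the coactivator armadillo or, without a signal, with corepressors.

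pan was mapped by chromatin immunoprecipitation and sequencing in whole embryos aged 0 to 24 h, from transgenic flies that express pan fused to eGFP, with an antibody against GFP. There was 1 group with 2 biological replicates. The labels describe an insertion that targets pan, without saying whether untagged pan was still made. All tissues were mixed, so the cells that carry a peak, neuronal or other, cannot be told apart. No control was analysed here, so whether a peak depends on pan was not tested. The peaks were those of the authors' conservative list, made from both replicates, selected by irreproducible discovery rate (IDR), a measure of how well a peak keeps its rank between replicates. That list held 6359 peaks on the main arms. The longer ranked list from which peaks were chosen held 122939. The signal of a peak is the authors' own strength value; its scale was not given, so it is used only to order peaks. Each gene was scored by the peak summits in its territory, the gene body and 2 kb on either side, and by the summits within 1 kb of its own transcription start sites (TSSs). With 1 group, all comparisons below are descriptions with no test, and the values of the 2 replicates stand for the error.

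Of the 32 genes, 10 held a summit, and together they held 15. Of the 21 Dpr genes, 7 held one (dpr1, dpr3, dpr6, dpr8, dpr14, dpr19 and dpr20). Of the 11 DIP genes, 3 did (DIP-alpha, DIP-epsilon and DIP-gamma). The share with a summit was 31.2%, against 39.7% of all protein-coding genes and 66.4% of genes of like length. A summit within 1 kb of an own TSS was found at dpr14, dpr19, dpr20 and DIP-epsilon, which is 12.5% of the 32 genes, against 25.6% of all protein-coding genes and 40.2% of genes of like length. The 4 strongest peaks lay at dpr20, dpr14, dpr20 again and DIP-alpha.

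The DNA under the summits is given first, as 101 bases centred on each summit in the dm6 assembly, read on the plus strand from the RefSeq genome of that assembly. The first set holds the strongest peak of each of 5 members with no TCF core, 3 at promoters and 2 deep in introns, and is in lower case throughout.
dpr20 (chr3L:857789-857889, + strand): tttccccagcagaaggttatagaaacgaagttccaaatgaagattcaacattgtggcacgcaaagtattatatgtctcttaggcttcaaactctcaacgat
dpr14 (chrX:7908664-7908764, + strand): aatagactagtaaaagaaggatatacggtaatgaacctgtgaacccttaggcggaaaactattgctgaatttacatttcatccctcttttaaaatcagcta
dpr19 (chr2L:10375866-10375966, + strand): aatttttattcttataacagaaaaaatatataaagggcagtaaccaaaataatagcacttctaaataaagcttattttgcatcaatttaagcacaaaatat
dpr3 (chr2L:2090368-2090468, + strand): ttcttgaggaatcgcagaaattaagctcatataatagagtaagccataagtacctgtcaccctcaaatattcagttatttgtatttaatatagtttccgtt
dpr6 (chr3L:10110508-10110608, + strand): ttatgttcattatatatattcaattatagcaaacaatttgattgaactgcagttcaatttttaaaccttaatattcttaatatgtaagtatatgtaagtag
The second set holds the 3 windows with a TCF core, which is printed in capitals as it reads on the plus strand. The core was searched on both strands in 4 forms, with CTTTGAA as the first, CTTTGAT as the second, CTTTGTA as the third and CTTTGTT as the fourth.
dpr8 (chrX:14331635-14331735, + strand): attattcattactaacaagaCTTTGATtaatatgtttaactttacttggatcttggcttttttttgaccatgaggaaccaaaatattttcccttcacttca
DIP-alpha (chrX:3546255-3546355, + strand): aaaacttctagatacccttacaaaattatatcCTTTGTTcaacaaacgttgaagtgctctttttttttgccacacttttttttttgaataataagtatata
DIP-gamma (chr3R:28959221-28959321, + strand): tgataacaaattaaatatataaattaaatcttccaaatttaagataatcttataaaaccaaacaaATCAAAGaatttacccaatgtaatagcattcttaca
In dpr8 and DIP-alpha the core reads forward, and its first printed base lies 30 and 18 bases to the left of the summit. In DIP-gamma the capitals are the reverse complement of CTTTGAT, beginning 15 bases to the right of the summit.

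The strongest peak of all, and the clearest promoter peak, was at dpr20. It spanned chr3L:857740-857940 with its summit 591 bp upstream of the TSS, and no TSS of another gene lay within 1 kb. Its pooled signal of 415.4 ranked 467 of 6359. Replicate 1 gave 220.2 and replicate 2 gave 195.4, and the peak was in both replicates' own lists. The second dpr20 peak, chr3L:851172-851294, lay beyond the other end of the gene, 6002 bp from the dpr20 TSS but 100 bp from that of Dci, which encodes an enzyme of fatty acid oxidation. Its pooled signal was 243.8 (rank 1122), with 111.1 in replicate 1 and 137.2 in replicate 2. It counts for dpr20 through the 2 kb margin and is nearer to the other gene.

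The dpr14 and dpr19 promoter peaks lay between divergent genes. The main dpr14 peak, chrX:7908613-7908805, had its summit 428 bp upstream of the dpr14 TSS and 217 bp from the TSS of spidey, an enzyme of lipid metabolism. Its pooled signal was 333.4 (rank 691), with 174.2 in replicate 1 and 157.2 in replicate 2. A second, weaker peak at chrX:7909496-7909835 had its summit inside spidey, 1380 bp upstream of dpr14, with a signal of 93.6 (50.2 and 44.0 in the replicates). Only the own list of replicate 2 held that second peak. At dpr19 the peak chr2L:10375746-10376085 reached 142.5 in the pool, 53.8 in replicate 1 and 83.4 in replicate 2, and was in both own lists. Its summit was 252 bp upstream of the dpr19 TSS and 159 bp from that of CG33303. Which gene of each divergent pair a peak belongs to cannot be read from its position. A further entry at dpr19, chr2L:10375954-10376293, overlapped that peak, carried the same −log10 IDR of 3.44 and had a signal of 2.1, rank 6356 of 6359. It was in neither own list nor in the longer pooled list, and dpr19 keeps its promoter summit without it.

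DIP-epsilon was the 1 DIP gene with a summit at its own promoter. The summit lay 20 bp inside the gene, in the 5′ UTR exon, under the peak chr2L:6411136-6411475. The signal was 85.4 (rank 4789), with 37.0 in replicate 1 and 34.6 in replicate 2, and the peak was in neither own list. Its window was also the richest in G and C among the 15 (55.4%).

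The other members with a summit carried it inside long introns. Of the 10 summits over 1 kb from an own TSS, 8 were intronic, and 7 of these were also over 1 kb from every annotated TSS. Their distance from the nearest own TSS ran from 8323 to 135907 bp with a median of 16989 bp, and the introns that held them were 17836 to 97831 bp long, median 27252 bp. Of the 8, 2 were in intron 1, those of dpr1 and DIP-gamma. Over all member summits, 53.3% lay within 1 kb of any TSS, near the 54% of all conservative summits. Of those member summits, 3 lay within 1 kb of another gene's TSS and not of an own TSS. By distance from any TSS the member summits were thus close to the whole list. The share over 1 kb from an own TSS was not set beside that of the list.

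**Figure D1:**
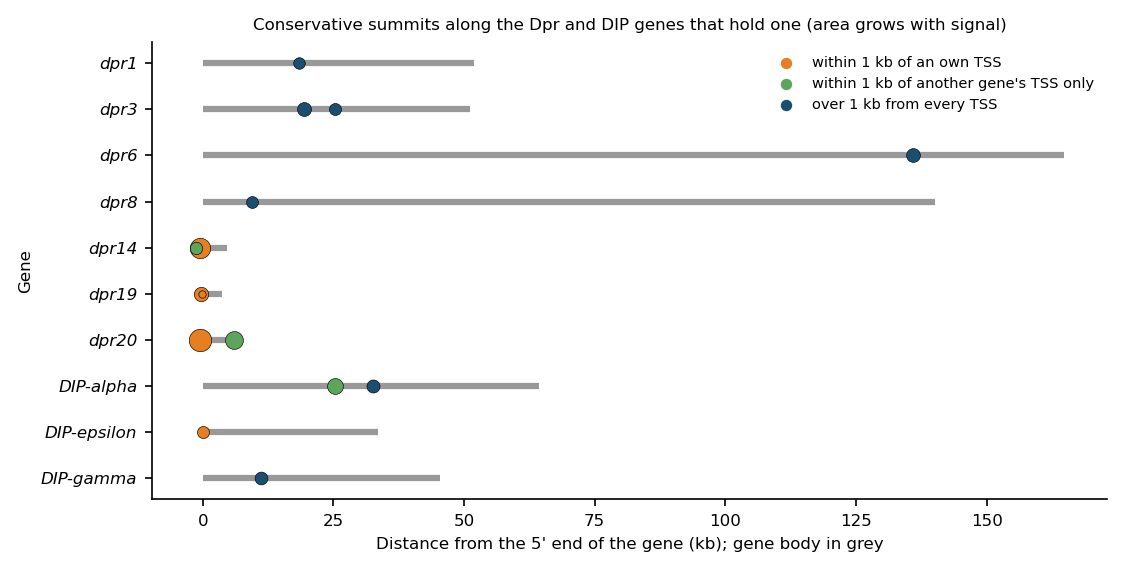
Position of the 15 conservative summits along the 10 Dpr and DIP genes that hold one, in kb from the 5′ end of the gene (horizontal axis); the grey bar is the gene body, colour gives the TSS class and the area of a point grows with signal. The short genes dpr14, dpr19 and dpr20 have a peak at the 5′ end (dpr20 has another beyond its 3′ end, at Dci), while dpr1, dpr3, dpr6, dpr8, DIP-alpha and DIP-gamma have theirs inside the gene, that of dpr6 at 135907 bp.

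In dpr6 the peak chr3L:10110388-10110727 lay 69533 bp into intron 6, the last, of 97831 bp. Its signal was 125.7 (rank 2975), with 72.5 in replicate 1 and 44.3 in replicate 2, and both own lists held it. dpr3 had a pair of peaks in its intron 2, of 27252 bp. The first, chr2L:2090248-2090587, was 19460 bp from the TSS with a signal of 129.6 (60.0 and 69.7 in the replicates) and was in both own lists. The second, chr2L:2084349-2084688, was 25359 bp from the TSS with a signal of 84.3 (37.0 and 51.8) and was in neither. The peak of dpr8, chrX:14331515-14331854, lay 9459 bp from the TSS in intron 2 with a signal of 81.7 (38.4 and 42.8), also in neither. The dpr1 peak, in intron 1 on arm 2R at chr2R:20716652-20716991, was 18339 bp from the TSS. With 75.3 (rank 5446; 45.5 and 34.4 in the replicates, in the own list of replicate 1), it was the weakest intronic peak of the set.

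DIP-alpha, a partner of dpr6 and dpr10, has a pair of TSSs and had a pair of intronic peaks between them. The stronger, chrX:3546135-3546474, lay in intron 2, 15640 bp upstream of the nearer DIP-alpha TSS, and 195 bp from the TSS of lncRNA:CR34335, a non-coding RNA gene whose TSS lies in the same intron. Its signal was 182.3 (rank 1732; 98.3 and 85.9 in the replicates), the highest of any DIP gene, and it was in both own lists. The weaker, chrX:3538818-3539157, lay in intron 3 with a signal of 107.7 (64.9 and 44.4) and was in the own list of replicate 1. DIP-gamma had its peak at chr3R:28959101-28959440, in intron 1 and 11101 bp from the TSS. The signal was 102.5 (rank 3862; 50.6 and 48.9), and the own list of replicate 2 held it.

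**Figure D2:**
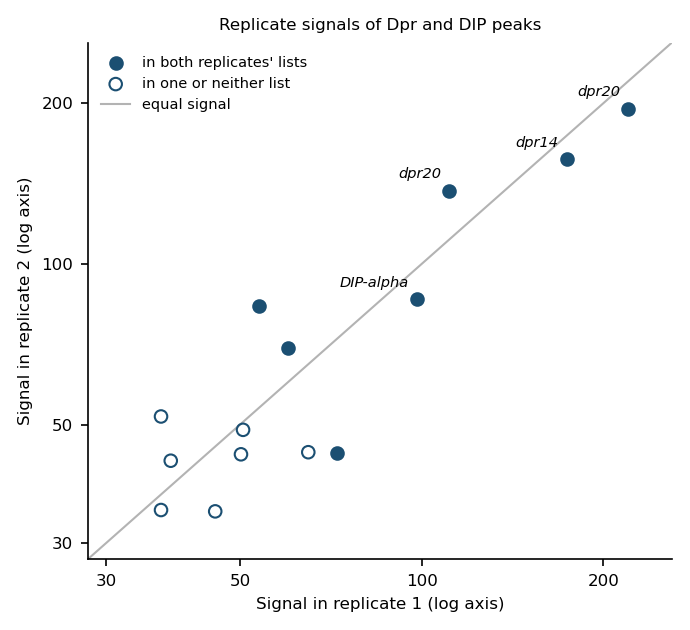
Signal in replicate 1 (horizontal) against replicate 2 (vertical) on log axes for the 14 Dpr and DIP peaks with a value in both; filled points were in both replicates' own lists, open points in 1 or neither, and the grey line marks equal signal. The 2 peaks of dpr20, the main peak of dpr14 and the stronger peak of DIP-alpha have the highest replicate 1 signals.

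The replicates put the 4 strongest peaks in the same order, and the weaker ones were often missing from an own list. Of the 15 peaks, 7 were in both own lists, 4 in 1 of them and 4 in neither. Over the whole conservative list 53% were in both and 20.9% in neither. Taken alone, the list of replicate 1 put a summit in 8 members, where all protein-coding genes stood at 32.4%. The list of replicate 2 put one in 7 members, where all protein-coding genes stood at 36.5%. Genes of like length reached 58.2% and 62.1% in those lists, against 25% and 21.9% of the members. dpr11 had summits in the list of replicate 1 alone, a peak of signal 44.6 at chr3R:6560717-6561052 in intron 2 and one of 8.2 overlapping it, both near the TSS of CG1137. The longer pooled list gave the same number of members, 10, where it reached 42.5% of all protein-coding genes and 69.7% of those of like length. It added a peak of signal 74.1 in a coding exon of dpr19 and 2 in intron 2 of DIP-alpha, of 61.5 and 2.4.

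**Figure D3:**
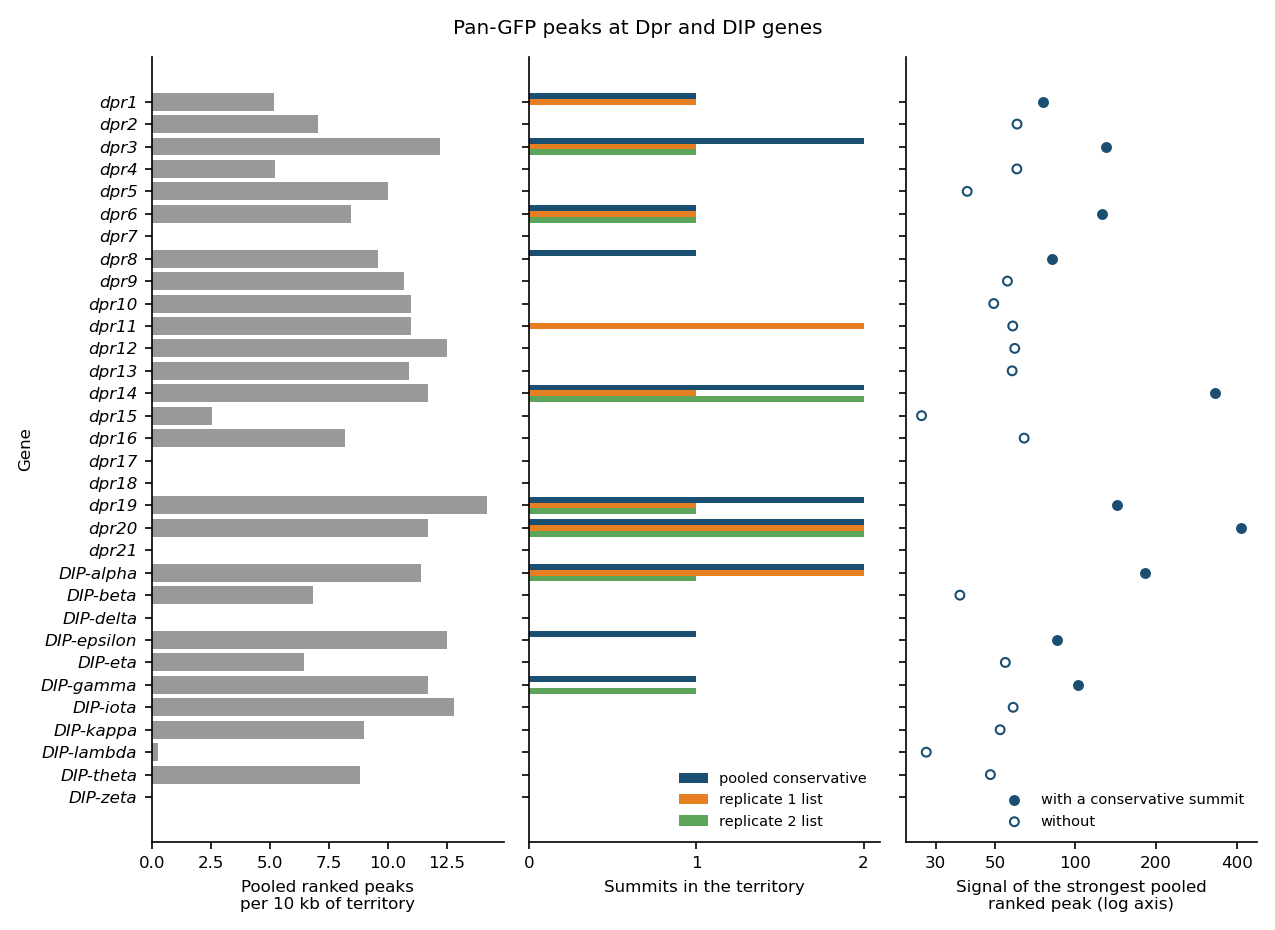
For each of the 32 genes, pooled ranked peaks per 10 kb of territory (left), summits in the conservative list and in each replicate's own list (middle), and the signal of its strongest ranked peak on a log axis (right; filled where the gene holds a conservative summit). Ranked peaks were listed at 26 genes, and the 10 with a summit are those with the highest signals, which the IDR threshold itself favours.

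Most of the genes without a summit did hold ranked peaks that fell short of the threshold. A ranked peak lay in the territory of 26 of the 32 genes (81.2%), against 89.6% of all protein-coding genes and 94.9% of genes of like length. Among genes that held one, 38.5% of the members and 70% of genes of like length also held a summit. In 16 of the 22 genes without a summit the strongest ranked peak had a signal of 26.6 to 64.3 (median 55.2). The highest of these were dpr16 (64.3), dpr2 (60.5), dpr4 (60.4), dpr12 (59.3), DIP-iota (58.5), dpr11 (58.3) and dpr13 (58.0). Below them came dpr9 (55.7), DIP-eta (54.7), DIP-kappa (52.3), dpr10 (49.5), DIP-theta (48.1), dpr5 (39.4), DIP-beta (37.0), DIP-lambda (27.7) and dpr15 (26.6). On the same scale the weakest 5% of all conservative peaks were below 57.5, and the 7 genes named first were above that value. That weakest part includes entries that overlap a stronger peak, such as the one of 2.1 at dpr19, so it is a loose yardstick.

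No ranked pooled peak was listed at dpr7, dpr17, dpr18, dpr21, DIP-delta and DIP-zeta. All 6 lay wholly inside stretches of at least 20 kb without a ranked pooled peak, from 30581 bp around dpr17 to 508830 bp around dpr21. For dpr17, dpr21, DIP-delta and DIP-zeta, whose territories are longer than 20 kb, this follows from holding no ranked peak. Only for dpr7 and dpr18 could it have been otherwise. There were 557 such stretches on the main arms, and they held 850 protein-coding genes, 6.09% of all. The ranked list of replicate 1 alone did hold peaks at dpr21 (43), DIP-delta (21) and dpr17 (15), and none at dpr7, dpr18 and DIP-zeta. The ranked list of replicate 2 held none at any of the 6. The peaks of replicate 1 show that dpr21, DIP-delta and dpr17 were covered in that replicate. For dpr7, dpr18 and DIP-zeta, and for all 6 in replicate 2, the lists do not show whether the stretches were measured and empty or not covered. The absence of a peak at the 6 genes was therefore not read as absence of pan. DIP-lambda, the longest member at 379 kb, had 9 ranked peaks, or 0.235 per 10 kb.

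Across all 32 members, the number of summits was only weakly correlated with gene length, though members with a summit had the higher median length. Dpr and DIP genes are long, with a median of 32.5 kb against 2.16 kb for all protein-coding genes, and long genes hold more summits: across all protein-coding genes Spearman's rho between length and summits was 0.33, as a description. Across the 32 members it was 0.07, while that between length and ranked peaks was 0.61. The 32 include the 6 genes with no ranked pooled peak, which were entered as genes without a summit. The value over all genes covers many genes shorter than most members, so 0.33 and 0.07 span unlike ranges of length. Among other genes over 16000 bp the share with a summit was 68.8%, 70.4%, 74% and 62.2%, from the shortest length class to the longest. The 10 members with a summit had a median length of 48.2 kb and the 22 without one 21 kb. Each member was therefore set beside the 100 other protein-coding genes nearest to it in length, 1643 distinct genes in all. On that footing 21.2 members with a summit would match the share in genes of like length, and 10 were found. For summits at own TSSs the corresponding number was 12.9, and 4 were found.

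**Figure D4:**
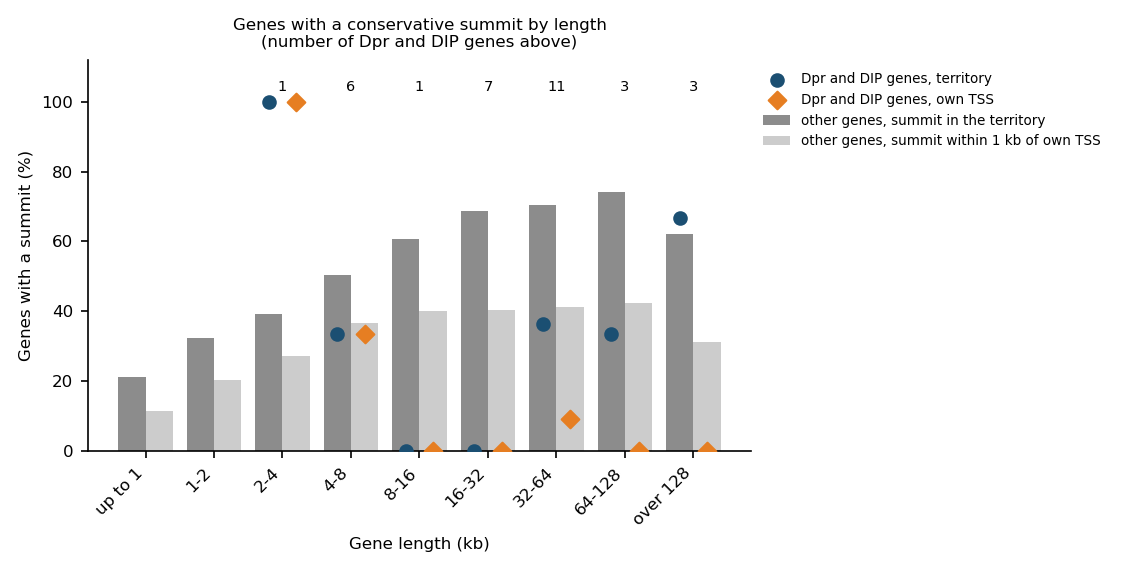
Share of genes with a conservative summit (vertical axis, %) by gene length (horizontal axis, kb); bars are all other protein-coding genes, points are the Dpr and DIP genes, whose number in each length class stands above. From 8 to 32 kb none of the 8 members held a summit, while 60.7% and 68.8% of other genes did in the 2 length classes. Those 8 include dpr17, DIP-delta and DIP-zeta, which had no ranked pooled peak and whose lack of a peak was not read as absence of pan. In the longest class, 2 of 3 members held a summit, against 62.2% of other genes.

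The 8 members of up to 10 kb were nearer to genes of their length. A summit was held by 3 of them (37.5% against 52.2%), at an own TSS in all 3 cases (37.5% against 37.5%), and they had 7.73 summits per 100 kb of territory against 8.48. Except for the dpr20 promoter peak, every summit counted there lay within 1 kb of another gene's TSS (spidey, CG33303 or Dci). The overlapping dpr19 entry of signal 2.1 is among them. Genes of like length were counted in the same way. The 24 members over 10 kb stood below genes of their length. A summit was held by 7 of them (29.2% against 71.1%), at an own TSS in DIP-epsilon alone (4.17% against 41.1%), and they had 0.552 summits per 100 kb against 4.6. Of the 3 longest members, dpr6 and dpr8 held a summit and DIP-lambda did not, while none of the 8 members of 8 to 32 kb held one. Those 8 include dpr17, DIP-delta and DIP-zeta, which had no ranked pooled peak. With 8 short genes, a single gene moves their share by 12.5 percentage points. Both subfamilies stood below genes of their length. The Dpr genes stood at 33.3% where genes of like length stood at 65.4%, and the DIP genes at 27.3% where those stood at 68.4%.

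Over all 32 members, a smaller share of the ranked peaks was in the conservative list than in genes of like length. Of the 1065 ranked peaks in member territories, 1.41% were, against 5.05% in genes of like length and 6.11% over all protein-coding genes. In the 8 members of up to 10 kb the share was 10.2% against 7.45%, and in the 24 longer ones 0.895% against 4.89%. The share in the short members rests on the summits of dpr14, dpr19 and dpr20, most of them beside another gene's TSS. The density of ranked peaks was lower as well. Member territories held 62.4 per 100 kb, against 95.3 in genes of like length and 104 in all protein-coding genes. Without the 6 genes that had none the value was 71.4. Without these and DIP-lambda, the other 25 members held 95.2 per 100 kb, against 97.8 in genes of their length. Those 25 members held 1.35 summits per 100 kb, against 0.878 over all 32 and 5.05 in genes of their length, and 40% of them held a summit, against 66.3%. The 25 genes were chosen by their density of ranked peaks, after the values were seen, while the genes of like length were not filtered. The near match in that density follows in part from the choice, so it does not show that only a few members were low. Among ranked peaks within 1 kb of any TSS, 8 of 174 passed (4.6%), against 9.55% of such peaks in the whole list. Among those farther away 7 of 891 passed (0.786%), against 3.37%. The median ranked signal was 19.5 in member territories and 23.1 over the list. The peaks that did pass were of ordinary strength, with a median of 108 where the list's was 120, and 7 of the 15 were above the list's median. At the members' own promoters, 21 of the 32 (65.6%) had a ranked peak within 1 kb of an own TSS, against 87.6% of genes of like length. The median strongest signal there was 37.9, against 74.9 (quartiles 44.8 and 138.3) in genes of like length. At the 17 promoters with ranked peaks and no summit it ran from 20.1 to 60.5, with dpr2 and dpr4 (60.4) at the upper end and DIP-iota at the lower.

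The values of 4 known binding pairs stand side by side here. DIP-alpha and its partner dpr6 both held intronic summits, while dpr10, the other partner, which lies near dpr6 on arm 3L, held 47 ranked peaks and no summit. DIP-gamma held a summit, and its partner dpr11 held 75 ranked peaks and a summit in the list of replicate 1 alone. Of DIP-delta and dpr12, neither held a summit. dpr12 had 75 ranked peaks up to 59.3, and DIP-delta lay in a stretch with no ranked pooled peak.

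A TCF core lay within 50 bp of 3 of the 15 summits (20%), those of dpr8, DIP-alpha and DIP-gamma printed above, against 9.47% of the 6359 conservative summits. All 3 were intronic. Of the 7 summits over 1 kb from every TSS 2 held the core, against 11% of all such summits. With 15 summits, 1 more or fewer moves the share by 6.67 percentage points. The homeodomain core TAATTA was in none of the 15 windows and in 8.82% of all, and TATCGATA, the site of the promoter factor DREF, in none and in 1.54%. GAGAG, bound by GAGA factor, was in 1, the dpr20 promoter, and in 10.9% of all. The windows had a median GC content of 29.7%, against 33.7% over the list. A match of letters is not evidence of a bound site.

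Other neuronal surface genes were scored in the same way. Of the 22 Beat and Side genes, another set of immunoglobulin-domain proteins that pair across neurons, 12 held a summit (54.5% against 68.7% of genes of like length), 1 of them at an own TSS (4.55% against 40.8%). In the list of replicate 1 alone 10 held a summit (45.5% against 61.9%), and in that of replicate 2 alone 6 did (27.3% against 65.7%). Their strongest peaks were at beat-Ib (535.8, beside lncRNA:CR44867), side-IV (247.6) and side (242.3). Of 38 other neuronal surface genes, 24 held a summit (63.2% against 67.5%) and 15 held one at an own TSS (39.5% against 40.7%). The strongest were at PlexA (530.0, also beside asRNA:CR44031), a semaphorin receptor, Toll-7 (422.9), a Toll family receptor, and Sema1a (375.1), a semaphorin. Of 5 genes for related proteins or partners, 2 held a summit (40% against 49.2% of genes of like length), each at an own TSS (40% against 31.6%). These were cDIP, whose secreted product binds Dprs and DIPs, with a peak of 104.2, and Lac, a septate junction protein, with one of 92.3. klg, Ama and wrapper had none. The list of replicate 1 alone put a summit in 1 of the 5 genes and that of replicate 2 in 2. The 32 Dpr and DIP genes held 0.878 summits per 100 kb of territory, against 4.82 in genes of like length. The Beat and Side genes held 2.14 against 5.26, and the other neuronal surface genes 2.8 against 4.68. In the same order, 1.41%, 2.64% and 3.02% of ranked peaks were in the conservative list, against 5.05%, 5.26% and 4.96%. Each of these lists stood below genes of its length on both measures. Whether these lists differ from each other was not tested.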

How the data were processed

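Chromatin immunoprecipitation of pan-eGFP with an anti-GFP antibody was sequenced from 2 biological replicates of whole embryos, 1 group, after sonication to 200 to 800 bp per the labels. The authors deposited ranked and IDR-thresholded peak lists on dm6, per replicate and pooled, per the file headers. Each peak carried a score, a signal and −log10 values (q and, in ranked lists, global IDR) from the authors; the score was not used for any result. Signal ranked peaks within a list. The aligner, peak caller and signal scale were not given in the sources used here. Depth is unknown, so no interval for it is given, and the control was not used.

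The 6359 conservative peaks on the main arms were analysed and 7 on other scaffolds left out. Summits were placed on the Ensembl annotation, release 115, of the same assembly, with Python 3.11.15 and pandas 2.3.3. Replicate peaks were matched by overlap of 50% of the shorter peak. Genes of like length were the 100 nearest in length to each member, members left out. Scoring was tested on simulated data. The members, gene lists and comparisons were chosen with earlier results of these data known. Every member was named, with full values for those with a summit and at most 3 genes from each other list by strongest peak, and sequences for at most 8 peaks of highest signal or with a TCF core. Alternatives covered other peak lists, territories, TSS windows, numbers of genes matched and motif windows.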

Additional observations from a re-analysis of the deposited data

How the results depend on the processing

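No paired analysis was possible because there was 1 group and no comparison between groups. Of 97 alternatives, 61 were labelled unchanged and 36 moved a value further. For shares and densities, unchanged meant a move smaller than the spread between the 2 replicates' lists. For counts it meant a value within 1.5 times the reported one, whatever the spread. A change from 10 to 7 members with a summit was thus labelled unchanged, though the spread was 0.707. IDR 0.01 removed 0 peaks, so alternatives with it could not move any value, and they are counted among the 61. Merging overlapping peaks removed 311. As reported, 10 members held a summit, and the share of members with one stood below the like-length share in every list tried. Gene bodies alone gave 7 members and a margin of 5 kb gave 11. Leaving out summits near another gene's TSS gave 8. With the list of 1 replicate alone, members with a summit ranged from 7 to 8, those with one at an own TSS were 3 in each, summits from 9 to 11, summits per 100 kb from 0.527 to 0.644, the share of summits over 1 kb from an own TSS from 66.7% to 72.7%, and summits with the TCF core were 2 in each. Beat and Side genes with a summit then ranged from 6 to 10, other neuronal surface genes from 20 to 23, the like-length share from 58.2% to 62.1%, and at an own TSS from 30.7% to 38.5%. Peaks above the median signal of the list alone left 6 members, 7 summits, 0.41 per 100 kb, 57.1% distal, 1 TCF core, 5 Beat and Side genes, 15 other neuronal surface genes, and like-length shares of 47.9% and, at an own TSS, 24.5%. The longer list gave 0.996 per 100 kb, 76.5% distal and 69.7% of like-length genes. Gene bodies alone gave 9 summits, 0.57 per 100 kb, 88.9% distal and 52.0% of like-length genes, and a margin of 5 kb gave 72.2% distal and 73.4%. Merging gave 71.4% distal. A TSS window of 500 bp gave 73.3% distal and 33.6% of like-length genes, and one of 250 bp left 2 members with a summit at an own TSS, 86.7% distal and 26.0%. Like-length genes limited to those with a ranked peak stood at 69.5%. In alternatives added after seeing the data, the share of members with a summit, 31.2%, became 38.5% among the members with a ranked peak and 40.0% among the 25 with at least 1 ranked peak per 10 kb, whose density of ranked peaks was 95.2 per 100 kb where that of all members was 62.4. The cause of the other shifts was not tested. Peak lists carry no read depth, so a weak site at a member cannot be told apart from an unoccupied one.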
